A study of Mus musculus with 18 samples.

Results

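Blood vessels of the brain were followed through 10 genes of the endothelial and mural cells that form the blood-brain barrier. The genes were Cldn5, Itm2a, Rgs5, Pecam1, Flt1, Slco1c1, Slc2a1, Abcb1a, Tek and Pdgfrb. They were taken by name, through every probe set of the array annotated to 1 of them, and the probe set with the highest mean over all arrays led for each gene. This gave 21 probe sets, and all 10 genes were among the 13072 tested of 18193 genes with a probe set. RNA came from whole brains of C57BL/6 mice aged 8 weeks, either wild type or carrying a knockout of estrogen receptor alpha (ERalphaKO) or of estrogen receptor beta (ERbetaKO). Each genotype had 3 female and 3 male arrays, 18 in all, so that age, strain and tissue, as labelled, were common to the 6 groups. The labels give neither the construct of the knockout alleles nor whether each array was a separate animal, and p-values therefore measure the spread between these arrays. The 6 ERalphaKO arrays carry 1 common tag in their labels that the others lack, and any shared handling of them cannot be told apart from their genotype.

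Capillary endothelial cells of the brain are sealed to each other by tight junctions and move nutrients across by dedicated carriers, while efflux pumps return many drugs to the blood. Pericytes and smooth muscle cells, together called mural cells, wrap the outer wall and are recruited by growth factor signals from the endothelium. Claudin-5, encoded by Cldn5, is the main seal of the junction, and GLUT1, encoded by Slc2a1, is the carrier that supplies the brain with glucose.

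The sequences just before the transcription start of 4 of these genes are shown because Cldn5, Itm2a and Rgs5 were the genes that changed and Slc2a1 was the closest of the others to the threshold. They come from RefSeq on build GRCm38.p6, whose promoter table as used here matched 8 of the 10 genes, and each runs over the 250 bases before the start, 5′ to 3′ on the strand of the gene. Capitals mark GGGCGG or its reverse complement CCGCCC, the core bound by Sp and KLF factors. The Cldn5 stretch is chr16:18776597-18776846 on the plus strand, Itm2a is chrX:107403361-107403610 on the minus strand, Rgs5 is chr1:169655251-169655500 on the plus strand and Slc2a1 is chr4:119108495-119108744 on the plus strand.
Cldn5: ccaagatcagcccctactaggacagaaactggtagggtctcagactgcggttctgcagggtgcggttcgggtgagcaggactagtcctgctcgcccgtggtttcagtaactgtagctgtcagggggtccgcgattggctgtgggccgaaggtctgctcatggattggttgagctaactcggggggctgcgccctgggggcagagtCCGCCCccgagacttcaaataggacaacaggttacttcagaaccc
Itm2a: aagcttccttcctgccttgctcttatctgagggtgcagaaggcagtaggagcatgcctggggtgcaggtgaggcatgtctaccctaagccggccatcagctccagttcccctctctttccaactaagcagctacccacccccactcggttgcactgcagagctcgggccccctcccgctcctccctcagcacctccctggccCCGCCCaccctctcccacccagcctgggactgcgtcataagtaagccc
Rgs5: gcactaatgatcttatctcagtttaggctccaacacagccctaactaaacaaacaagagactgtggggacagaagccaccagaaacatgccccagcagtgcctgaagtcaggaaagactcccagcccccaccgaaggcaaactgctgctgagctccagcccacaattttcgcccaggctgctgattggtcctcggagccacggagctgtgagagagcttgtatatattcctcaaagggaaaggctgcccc
Slc2a1: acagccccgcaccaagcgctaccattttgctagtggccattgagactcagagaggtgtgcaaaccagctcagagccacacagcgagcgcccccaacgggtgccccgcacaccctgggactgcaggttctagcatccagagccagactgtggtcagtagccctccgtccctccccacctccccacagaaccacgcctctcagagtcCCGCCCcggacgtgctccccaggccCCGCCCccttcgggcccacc
The GGGCGG core stood in 4 of the 8 stretches, those of Cldn5, Itm2a, Slc2a1 and Flt1, against 32.7% of 32851 stretches of the same length, searched on both strands. The full estrogen response element, GGTCA and its reverse complement TGACC with any 3 bases between them, was found in 0 of the 8 and in 0.0639% of all stretches. The nuclear receptor half-site AGGTCA, which can overlap that element, was found in 0 of the 8 and in 14% of all. The ETS core GGAAG, read by endothelial transcription factors, stood in 4 of the 8 (Itm2a, Flt1, Slco1c1 and Abcb1a), against 64.1%. Of the hypoxia response core, ACGTG, there was 1 copy, 36 bases before the start of Slc2a1, and 16.6% of all stretches held one. These are matches of letters, and no binding was measured.

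Several facts of the arrays touch the values below. Signals correlated at 0.943 to 0.984 within groups and at 0.933 to 0.981 between groups, and Xist separated the sexes on all 18 arrays. The labels of the knockouts could not be checked by the loss of their targets: the Esr1 probe set gave 143 ± 35.9 (SD, n = 6) in wild type against 129 ± 21.6 in the line labelled ERalphaKO, and that of Esr2 gave 28.7 ± 11.4 in wild type against 271 ± 98 in the line labelled ERbetaKO. Every direction below therefore refers to the label. The Purkinje cell gene Pcp2 spanned 117 to 10790, with 7 arrays below 500 (2 of wild type, 2 of the ERalphaKO line, 3 of the ERbetaKO line). The pituitary gene Gh spanned 67.0 to 19903 in wild type and reached 500 on 4 of its 6 arrays. In each knockout line Gh did so on 1 of 6. The parts of brain and pituitary on the arrays were thus uneven, and their share in the values below was not tested. The 3' over 5' signal ratio of the Actb control, a measure of RNA integrity and labelling, averaged 1.20 ± 0.021 for wild type, 1.28 ± 0.079 for the ERalphaKO line and 1.48 ± 0.182 for the ERbetaKO line (SD, n = 6). That ratio ran from 1.17 to 1.23 in wild type, from 1.15 to 1.37 in the ERalphaKO line and from 1.34 to 1.84 in the ERbetaKO line. The wild type and ERbetaKO ranges do not overlap, so RNA quality or labelling cannot be told apart from the ERbetaKO label. In RNA of a whole brain, fewer vessel cells and less RNA per vessel cell cannot be told apart.

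By leading probe set, Cldn5 and Itm2a were lower than in wild type in both knockout lines, and Rgs5 was higher in the ERbetaKO-labelled line. The second Itm2a probe set was lower in the ERalphaKO-labelled line alone. With limma and Benjamini-Hochberg adjustment over all genes tested at 0.05, 2 of the 10 genes passed in ERalphaKO-labelled brains (both lower) and 3 of 10 in ERbetaKO-labelled brains (2 lower, 1 higher). Over all genes tested, 6.70% passed in the first comparison (401 or 3.07% higher, 475 or 3.63% lower) and 7.50% in the second (381 or 2.91% higher, 599 or 4.58% lower). When arrays were scaled to a common median instead, that last split became 134 higher and 1739 lower and the median of all genes moved from 0.01 to -0.12 on the log2 scale. With every probe set above the filter tested on its own, in place of 1 per gene, the splits became 1480 higher and 970 lower in the first comparison and 1143 higher and 970 lower in the second. The median log2 difference of the 10 genes was -0.11 for the first line and -0.07 for the second, beside -0.03 and 0.01 over all genes. Both comparisons use the same 6 wild type arrays, so the 2 sets of values are not independent of each other.

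**Figure D1:**
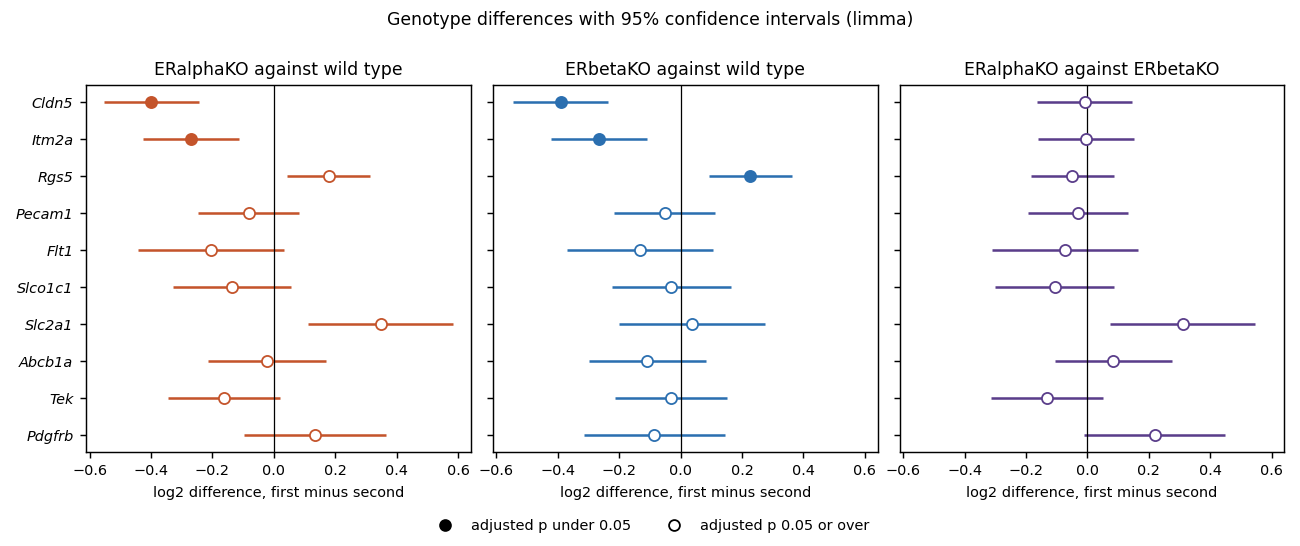
Log2 difference of each gene's leading probe set (points) with its 95% confidence interval (lines) from limma, in the comparisons of ERalphaKO-labelled with wild type, ERbetaKO-labelled with wild type and ERalphaKO-labelled with ERbetaKO-labelled arrays, 6 arrays per genotype. Filled points passed the adjusted threshold of 0.05. Cldn5 lies at -0.40 and -0.39 against wild type and at -0.01 between the lines.

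Cldn5, which encodes the claudin of the endothelial tight junction, gave signals of 1448, 1757 and 1737 on the wild type female arrays and 1430, 1463 and 1432 on the male ones. On ERalphaKO-labelled arrays it gave 1025, 1044 and 1135 in females and 1247, 1105 and 1385 in males. On ERbetaKO-labelled arrays it gave 1226, 1209 and 1030 in females and 1291, 1095 and 1116 in males. All 12 knockout-labelled values lay under the lowest wild type value. Means were 1545 ± 157 for wild type, 1157 ± 137 for the ERalphaKO line and 1161 ± 96.9 for the ERbetaKO line (SD, n = 6). On the log2 scale Cldn5 fell by 0.40 (SE 0.07, limma adjusted p = 0.0058) in the first line and by 0.39 (SE 0.07, limma adjusted p = 0.0058) in the second, or 24.2% and 23.7% on that scale. The exact permutation test of 6 against 6 arrays gave p = 0.0022 in each line, two-sided, the smallest it can give. Both calls held with any 1 array left out, at adjusted p up to 0.021 and 0.017. They were lost when limited to the 11 arrays whose Pcp2 signal reached 500, where the differences were -0.41 (limma adjusted p = 0.066) and -0.37 (adjusted p = 0.089), and for the ERbetaKO line once the Actb ratio entered as a covariate, at -0.36 (adjusted p = 0.20).

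Of the leading probe sets, the 6 values of Cldn5 alone lay apart from wild type in the ERalphaKO-labelled line, and those of Cldn5 and Itm2a in the ERbetaKO-labelled line, 1 and 2 of the 10 genes. Such separation was seen for 4.65% and 4.06% of all genes tested. Between the lines it was seen for 0 of the 10 and 5.85% of all genes.

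Itm2a encodes a small integral membrane protein enriched in brain endothelium. Its leading probe set gave 3213, 2849 and 3000 in wild type females and 3079, 3600 and 3329 in wild type males. ERalphaKO-labelled females gave 2806, 2523 and 2866 and the males 2347, 2230 and 3030. ERbetaKO-labelled females gave 2757, 2763 and 2494 and the males 2685, 2528 and 2553. The ERbetaKO-labelled values all lay under wild type, while 2 of the 6 ERalphaKO-labelled values overlapped it. Itm2a fell by 0.27 (SE 0.07, limma adjusted p = 0.040) in ERalphaKO-labelled and by 0.26 (SE 0.07, limma adjusted p = 0.040) in ERbetaKO-labelled brains, with exact permutation p of 0.011 and 0.0022. With the mean of both its probe sets the ERbetaKO value was -0.13 (limma adjusted p = 0.18), and with an Actb ratio covariate the values in the 2 lines were -0.25 and -0.20 (adjusted p = 0.098 and 0.49). In the first line 9 of the 12 arrays, left out alone, took the adjusted p above 0.05 (0.056 to 0.10), the exceptions being wild type female 2, wild type male 1 and ERalphaKO male 3. In the second line 9 of 12 also did so (0.056 to 0.088), the exceptions being wild type female 2, wild type male 1 and ERbetaKO female 1.

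The other Itm2a probe set did not follow the leading one in both lines. It ran from 2132 to 2342 in wild type (median 2280), from 1784 to 2074 in the ERalphaKO line (median 1856) and from 2042 to 2484 in the ERbetaKO line (median 2244). The ERalphaKO-labelled values lay wholly under wild type and the ERbetaKO-labelled values covered the wild type range. In the fit of all probe sets with no filter on low values it fell by 0.26 (SE 0.06, limma adjusted p = 0.019) in ERalphaKO-labelled brains and differed by 0.00 (SE 0.06, limma adjusted p = 0.99) in ERbetaKO-labelled brains. The lines differed from each other at this probe set by -0.26 (SE 0.06, limma adjusted p = 0.014), and at the leading probe set by -0.01 (SE 0.07, adjusted p = 0.97). The lower Itm2a of ERbetaKO-labelled brains therefore stood on 1 of its 2 probe sets. Without ERalphaKO male 1 or ERalphaKO male 2 the fall of this probe set against wild type lost its call, at adjusted p = 0.054 and 0.055.

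Rgs5, a regulator of G protein signalling that marks pericytes, went the other way. Its leading probe set gave 2950, 2505 and 2429 in wild type females and 2838, 2828 and 2537 in wild type males. The ERalphaKO-labelled values were 3037, 2773 and 2887 in females and 3496, 3015 and 3050 in males, and the ERbetaKO-labelled values were 3016, 2941 and 3039 in females and 3234, 3540 and 3112 in males. All 12 knockout-labelled values exceeded the wild type median, and 4 of 6 and 5 of 6 exceeded the highest wild type value. Rgs5 rose by 0.23 on the log2 scale (SE 0.06, limma adjusted p = 0.040, exact permutation p = 0.0043) in ERbetaKO-labelled brains. In ERalphaKO-labelled brains it differed by 0.18 (SE 0.06, limma adjusted p = 0.099, exact permutation p = 0.019). With a common median scaling the ERbetaKO value was 0.09 (limma adjusted p = 0.45), which is 0.21 above the median of all genes under that scaling. With an Actb ratio covariate it was 0.27 (adjusted p = 0.26), and the call was also lost with 10 of the 12 arrays left out in turn (adjusted p 0.052 to 0.097), all but wild type female 1 and ERbetaKO male 3.

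The other 3 Rgs5 probe sets were all positive in both lines. They differed from wild type by 0.13, 0.32 and 0.28 in the ERalphaKO line and by 0.30, 0.50 and 0.26 in the ERbetaKO line. Of these 6 values, 1 passed in the unfiltered fit of all probe sets, that of the ERbetaKO line at 0.50 (SE 0.13, limma adjusted p = 0.043). That probe set gave 353 to 690 in wild type (median 559) and 580 to 835 in ERbetaKO-labelled brains (median 784). The ERbetaKO call of this probe set was lost with 9 of the 12 arrays left out in turn, at adjusted p of 0.053 to 0.095.

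In the difference between 2 genes on the same array a common scale factor largely cancels, apart from the constant added before the logarithm. The 3 pairs below were chosen after their values were seen. The log2 level of Rgs5 minus that of Cldn5 ran from 0.47 to 1.00 on wild type arrays, from 1.10 to 1.51 on those of the ERalphaKO line and from 1.24 to 1.64 on those of the ERbetaKO line. For Rgs5 minus Itm2a the ranges were -0.38 to -0.11, 0.01 to 0.56 and 0.09 to 0.48. In these 2 pairs every knockout-labelled array lay above every wild type array. For Slc2a1 minus Cldn5 the ranges were -0.04 to 0.42, 0.56 to 1.35 and 0.30 to 1.03, and 6 of 6 arrays of the first line and 5 of 6 of the second lay above all wild type arrays. Each pair set a gene already seen lower against a gene already seen higher by point value. Its separation is therefore no further support for a change. How many other gene pairs lie apart in this way was not counted, and the values do not show which gene moved.

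**Figure D2:**
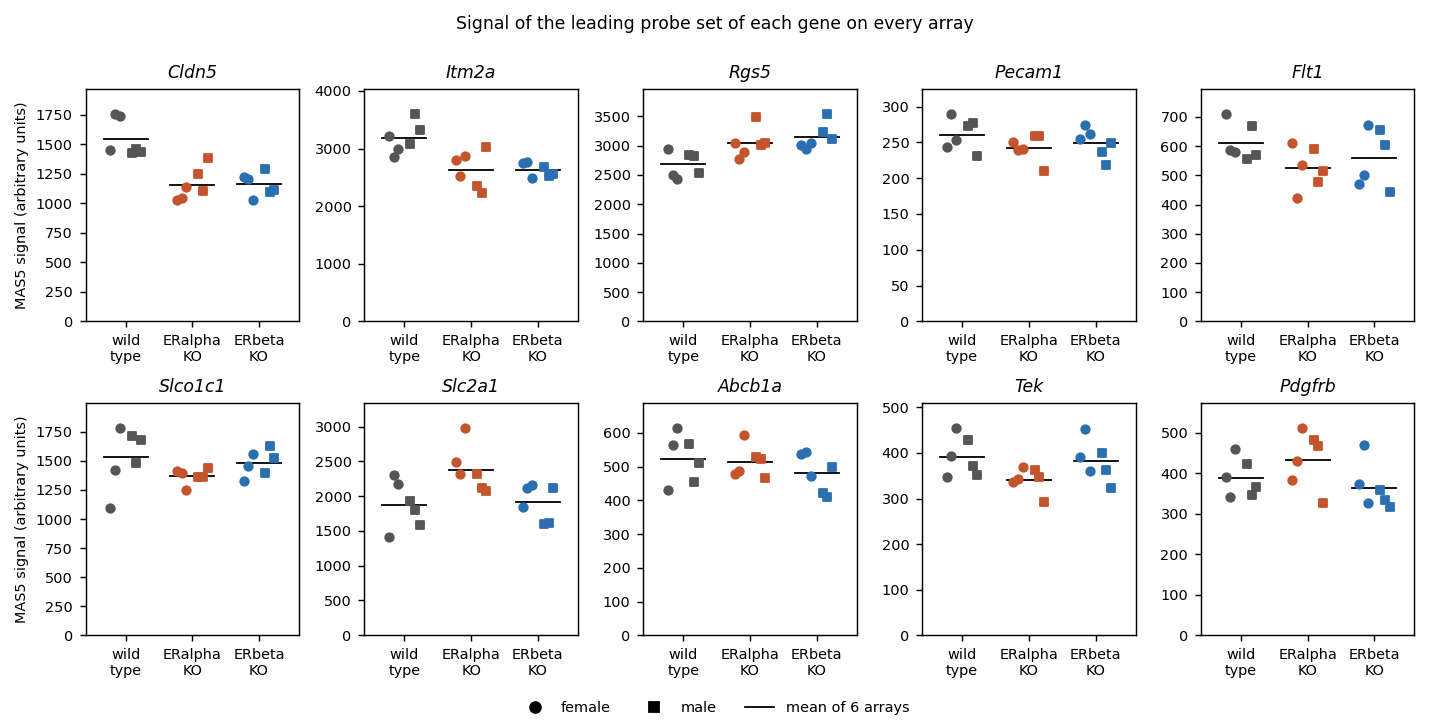
MAS5 signal (y axis, arbitrary units from 0) of the leading probe set of each of the 10 genes on all 18 arrays, by genotype label (x axis). Circles are females, squares are males and lines are means of 6 arrays. All knockout-labelled Cldn5 values, 1025 to 1385, lie under the lowest wild type value of 1430. The ERbetaKO-labelled Itm2a values also lie under all wild type ones, and every other knockout-labelled group overlaps wild type.

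Among the carriers, Slc2a1 came closest to the threshold without passing it. Its leading probe set gave 1410, 2308 and 2179 in wild type females and 1936, 1802 and 1586 in wild type males. ERalphaKO-labelled females gave 2489, 2311 and 2981 and the males 2318, 2114 and 2076. ERbetaKO-labelled females gave 1843, 2112 and 2166 and the males 1604, 1617 and 2112. The ERalphaKO-labelled arrays were all above the wild type median, and 4 of the 6 were above every wild type value. The difference from wild type was 0.35 (SE 0.11, 95% interval 0.11 to 0.58, limma adjusted p = 0.071) in ERalphaKO-labelled and 0.04 (SE 0.11, interval -0.20 to 0.27, limma adjusted p = 0.87) in ERbetaKO-labelled brains. Without wild type female 2 the first became 0.41 at an adjusted p of 0.048, and with array weights it became 0.33 at 0.043.

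Its probe sets disagreed. The second one ran from 968 to 1388 in wild type, from 1449 to 2102 in the ERalphaKO line and from 1086 to 1412 in the ERbetaKO line, so that the ERalphaKO-labelled values lay above all others. It rose by 0.44 against wild type (SE 0.10, limma adjusted p = 0.021) and by 0.44 against ERbetaKO-labelled brains (SE 0.10, limma adjusted p = 0.016) in the unfiltered fit of all probe sets. The first of these calls was lost without wild type male 3 or ERalphaKO female 1, at adjusted p = 0.056 and 0.055. The last one was lower than wild type in both lines by point value, at -0.11 and -0.16 (SE 0.09), and passed in neither (limma adjusted p = 0.53 and 0.32).

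**Figure D3:**
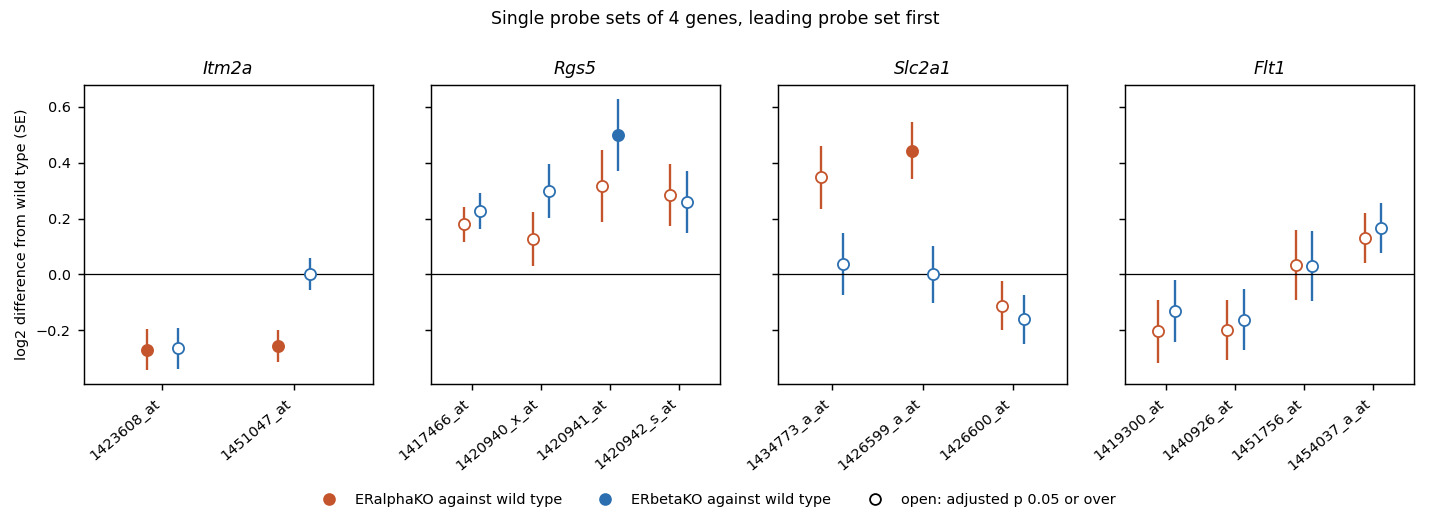
Log2 difference from wild type (points, y axis) with its standard error (lines) for every probe set of Itm2a, Rgs5, Slc2a1 and Flt1 (x axis, leading probe set first), from the unfiltered limma fit of all probe sets, 6 arrays per genotype. Filled points passed an adjusted p of 0.05 in that fit, where the leading Itm2a and Rgs5 probe sets of the ERbetaKO-labelled line stood at 0.058 and 0.059 (0.041 and 0.043 with low probe sets filtered out). The 4 Rgs5 probe sets all lie above 0, and those of Slc2a1 and Flt1 lie on both sides.

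The other carriers did not pass in either line. Slco1c1, which takes thyroid hormone across the barrier, gave 1094 to 1785 in wild type (median 1581), 1247 to 1438 in the ERalphaKO line (median 1379) and 1331 to 1624 in the ERbetaKO line (median 1487). It differed from wild type by -0.14 (95% interval -0.33 to 0.06) and -0.03 (interval -0.22 to 0.16), with limma adjusted p of 0.39 and 0.87. The knockout-labelled values lay within the wild type range, whose lowest value was wild type female 1. Abcb1a, the P-glycoprotein efflux pump, gave 431 to 615 in wild type (median 537), 466.4 to 592 in the ERalphaKO line (median 504) and 411 to 543 in the ERbetaKO line (median 485). Its differences were -0.02 (interval -0.21 to 0.17) and -0.11 (interval -0.30 to 0.08), with limma adjusted p of 0.91 and 0.49. Its other probe set differed by 0.05 and -0.07.

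The endothelial receptors and the adhesion molecule Pecam1 also failed to pass. Flt1, a receptor for vascular endothelial growth factor, gave 557 to 710 in wild type (median 583), 421 to 609 in the ERalphaKO line (median 524) and 442 to 672 in the ERbetaKO line (median 553). It differed by -0.20 (95% interval -0.44 to 0.03, limma adjusted p = 0.29) and -0.13 (interval -0.37 to 0.11, limma adjusted p = 0.50). Its 4 probe sets pointed both ways, from -0.20 to 0.13 in the first line and from -0.16 to 0.17 in the second. Tek, the angiopoietin receptor, gave 348 to 455 in wild type (median 381), 292 to 368 in the ERalphaKO line (median 345) and 323 to 452 in the ERbetaKO line (median 377). All 6 ERalphaKO-labelled values of Tek lay under the wild type median, with a difference of -0.16 (interval -0.34 to 0.02, limma adjusted p = 0.27), and the ERbetaKO difference was -0.03 (limma adjusted p = 0.86). Pecam1, which joins endothelial cells to each other, stayed between 210 and 290 on all arrays and differed by -0.08 and -0.05 (limma adjusted p = 0.56 and 0.72).

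Pdgfrb, the receptor through which pericytes are recruited, passed in neither line. Its leading probe set gave 342 to 460 in wild type (median 378), 327 to 512 in the ERalphaKO line (median 449) and 317 to 469 in the ERbetaKO line (median 346). The differences were 0.13 (95% interval -0.10 to 0.36, limma adjusted p = 0.49) and -0.09 (interval -0.32 to 0.15, limma adjusted p = 0.66). Its other probe set lay between 15 and 54.1, under the constant of 63.6 that was added to every signal before the logarithm, so that its fold is not readable.

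Between the lines, 0 of the 10 genes passed, while 15.4% of all genes did. At an unadjusted p under 0.05 in limma, which 32.1% of all genes had, there was 1, Slc2a1, which was 0.31 higher in ERalphaKO-labelled brains (95% interval 0.07 to 0.55, limma adjusted p = 0.069). Pdgfrb was next at 0.22 (interval -0.01 to 0.45, limma adjusted p = 0.18). With a common median scaling both passed, at 0.43 (limma adjusted p = 0.021) and 0.32 (adjusted p = 0.042). Slc2a1 also passed without ERbetaKO male 3, at 0.37 (limma adjusted p = 0.044), with array weights and with those groups fitted alone. For Cldn5 the difference between the lines was -0.01 with an interval of -0.16 to 0.15. By point value the 6 group means of Cldn5 ran from wild type females (1647 ± 173, SD, n = 3) and wild type males (1442 ± 18.1) down to ERalphaKO-labelled males (1246 ± 140), ERbetaKO-labelled males (1167 ± 108), ERbetaKO-labelled females (1155 ± 108) and ERalphaKO-labelled females (1068 ± 58.6). Neighbours in that order overlapped except at the step from wild type males to ERalphaKO-labelled males. For the other 9 genes every group overlapped its neighbour in the order of means. How many of all genes tested show such a step was not counted, so the step does not set Cldn5 apart.

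Sex made no difference that passed for any of the 10 genes. Females and males differed by -0.11 to 0.19 on the log2 scale, with limma adjusted p of 0.97 or more, and 0.0306% of all genes passed. None of the 10 had an unadjusted p under 0.05 in limma, beside 4.57% of all genes, and the values farthest from 0 were those of Rgs5 and Slc2a1. Whether the genotype difference depended on sex was tested as an interaction, which called 0 of 13072 genes (0.00%) in either line, with 673 (5.15%) and 442 (3.38%) at an unadjusted p under 0.05 in limma. Cldn5 was 1 of the 673: its difference from wild type was -0.59 in ERalphaKO-labelled females and -0.21 in males, and the 2 differed by -0.39 (SE 0.15, limma adjusted p = 0.90). For Itm2a the same values were -0.14 in females and -0.40 in males, which differed by 0.25 (SE 0.15, limma adjusted p = 0.97). Within ERalphaKO-labelled females Cldn5 alone of the 10 passed (limma adjusted p = 0.022), beside 0.360% of all genes, and within males none did, beside 0.780%, with 2 at an unadjusted p under 0.05 beside 16.5% of all genes. Within ERbetaKO-labelled females and males 0 of the 10 passed, beside 0.275% and 1.77%, and at an unadjusted p under 0.05 there were 2 and 3, beside 1432 and 2671 of the 13072 genes.

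Genes that share these cell types gave mixed directions. Of 23 other endothelial genes tested, 1 rose and 1 fell in ERalphaKO-labelled brains, beside 6.70% of all genes called in either direction. In ERbetaKO-labelled brains 1 rose and 4 fell, beside 7.50%. List medians were -0.06 and -0.02. Whether this or any list below held more calls than all genes did was not tested, and the genes named are a description. Sox18, a transcription factor of the vascular lineage, fell by 0.54 (limma adjusted p = 0.045) and by 0.68 (adjusted p = 0.015). The von Willebrand factor gene Vwf rose by 0.41 in the first line (limma adjusted p = 0.048). In the second line Ramp2, a partner of the adrenomedullin receptor, fell by 0.37 (limma adjusted p = 0.0058), the matrix gene Igfbp7 fell by 0.43 (adjusted p = 0.015) and Sox17 fell by 0.34 (adjusted p = 0.038). Cd34, a sialomucin of endothelial and blood progenitor cells that is named outside the rule for naming genes, rose by 0.67 (adjusted p = 0.048). The cadherin of endothelial junctions, Cdh5, differed by -0.15 and -0.14 (limma adjusted p = 0.48 and 0.51), chosen after its value was seen. The calls of Sox18 and Vwf in the ERalphaKO-labelled line were each lost with 11 of the 12 arrays left out in turn (adjusted p up to 0.10 and 0.11), that of Cd34 with 10 and that of Sox17 with 9. In the ERbetaKO-labelled line the calls of Sox18, Sox17, Cd34 and Igfbp7 were lost with the Actb ratio as a covariate. Those of Sox17, Cd34 and Igfbp7 were also lost with the mean of their probe sets. On the arrays with Pcp2 of 500 or more, only the Sox18 call of the ERbetaKO-labelled line was kept.

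Of 20 genes of junctions and carriers, 2 rose and 2 fell in ERalphaKO-labelled brains, beside 6.70% of all genes. In ERbetaKO-labelled brains 1 fell, beside 7.50% of all genes. List medians were 0.04 and -0.01. The monocarboxylate carrier Slc16a1 rose by 0.46 (limma adjusted p = 0.029) and the lipoprotein receptor Lrp1 by 0.42 (adjusted p = 0.014). The transferrin receptor Tfrc fell by 0.28 (limma adjusted p = 0.019) and Bsg, the chaperone of monocarboxylate carriers, by 0.34 (adjusted p = 0.037). In ERbetaKO-labelled brains the amino acid carrier Slc7a5 fell by 0.41 (limma adjusted p = 0.0047). The junction genes Ocln and Tjp1, chosen after their values were seen, differed by -0.01 and 0.19 in the first line (limma adjusted p = 0.96 and 0.064) and by 0.21 and 0.08 in the second (adjusted p = 0.15 and 0.42). Bsg lost its call with 11 of the 12 arrays left out in turn, Slc16a1 with 6, and Tfrc without ERalphaKO male 2 (adjusted p = 0.052). With the Actb covariate the calls of Slc16a1, Tfrc, Bsg and Slc7a5 were lost. The mean of probe sets removed those of Slc16a1 and Tfrc, and the arrays with Pcp2 of 500 or more kept no call of this list. Neurons and glia also express several of these genes, so their whole-brain level is not that of vessels alone.

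Of 18 other mural cell genes, 1 rose and 1 fell in ERalphaKO-labelled brains, beside 6.70% of all genes. In ERbetaKO-labelled brains 1 rose, beside 7.50% of all genes. List medians were 0.07 and 0.03. Desmin, encoded by Des, an intermediate filament of muscle and pericytes, fell by 0.68 in the first line (limma adjusted p = 0.0036), and the myosin light chain gene Myl9 rose by 0.44 (adjusted p = 0.011). The Des call was lost with the mean of its probe sets, and that of Myl9 on the arrays with Pcp2 of 500 or more. In the second line Abcc9, a potassium channel subunit of pericytes, rose by 0.41 (limma adjusted p = 0.023), a call lost with 4 of the 12 arrays left out in turn. The Abcc9 call was also lost with a common median scaling, the Actb covariate or the high-Pcp2 arrays alone. The smooth muscle actin gene Acta2 differed by 0.25 and 0.03 (limma adjusted p = 0.14 and 0.87) and Notch3 by 0.16 and -0.03 (adjusted p = 0.33 and 0.90), both chosen after their values were seen.

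Of 33 genes of vessel growth and Wnt signalling, 1 fell in ERalphaKO-labelled brains, beside 6.70% of all genes called. In ERbetaKO-labelled brains 1 rose and 1 fell, beside 7.50% of all genes. List medians were 0.00 and -0.02. Wnt7b, a neural Wnt ligand that maintains brain endothelium, fell by 0.32 in the first line (limma adjusted p = 0.020). In the second line Vegfb fell by 0.64 (limma adjusted p = 0.00071) and Hif1a, which encodes the oxygen-sensing transcription factor subunit, rose by 0.52 (adjusted p = 0.045). The Wnt7b call was lost without wild type male 3, ERalphaKO male 1 or ERalphaKO male 2 (adjusted p = 0.053 each), and that of Hif1a with 10 of the 12 arrays left out in turn. Wnt7b also lost its call with a common median scaling, the mean of its probe sets or the arrays with Pcp2 of 500 or more. That of Hif1a was lost in 7 of 15 other settings, the Actb covariate among them. Of 17 genes of hypoxia and glucose uptake, 2 rose in each line and none fell, beside the same 6.70% and 7.50%. List medians were -0.03 and 0.01. Ddit4, a stress-induced inhibitor of growth signalling, rose by 0.63 and 0.61 (limma adjusted p = 0.0022 and 0.0026), and the glycolytic regulator Pfkfb3 rose by 0.58 in ERalphaKO-labelled brains alone by call (adjusted p = 0.0081). Hif1a was the other gene that rose in ERbetaKO-labelled brains, since it stands in both lists. The Ddit4 call in ERbetaKO-labelled brains was lost with the Actb covariate, and the Pfkfb3 call on the arrays with Pcp2 of 500 or more.

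**Figure D4:**
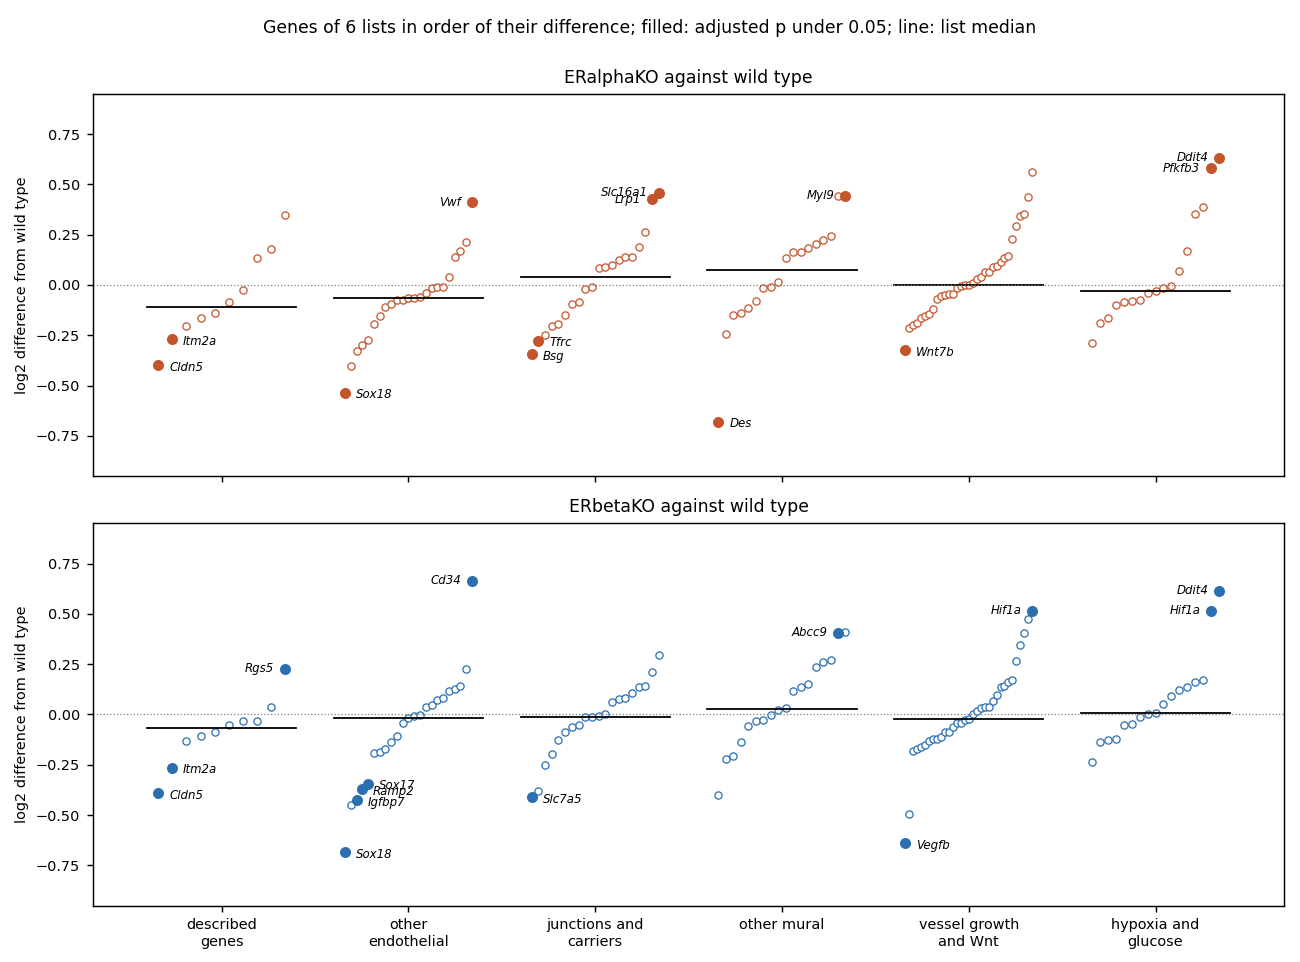
Log2 difference from wild type (y axis) of the tested genes of 6 lists (x axis), each list in order of its values, in ERalphaKO-labelled (upper panel) and ERbetaKO-labelled brains (lower panel). Filled, named points passed an adjusted p of 0.05 in limma, open points did not, and lines are list medians, which lie between -0.11 and 0.07 in both panels.

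The direct test between the lines called 5 of the 23 other endothelial genes, 5 of the 20 junction and carrier genes, 5 of the 18 other mural genes, 3 of the 33 growth and Wnt genes and 1 of the 17 hypoxia genes, beside 15.4% of all genes. Kdr, the main signalling receptor for vascular endothelial growth factor, was lower in ERalphaKO-labelled than in ERbetaKO-labelled brains, at -0.48 (limma adjusted p = 0.018), and Robo4, an endothelial guidance receptor, was lower at -0.36 (adjusted p = 0.017). Ramp2 and Igfbp7 were higher there by 0.26 and 0.35 (limma adjusted p = 0.021 and 0.022), and Adgrl4, named outside the rule, differed by -0.34 (adjusted p = 0.048). Slc7a5, Lrp1 and Slc16a1 were higher by 0.39, 0.42 and 0.47 (limma adjusted p = 0.0044, 0.0089 and 0.016) and Tfrc lower, at -0.23 (adjusted p = 0.026). Slc38a5, named outside the rule, differed by -0.34 (limma adjusted p = 0.042). Des was lower, at -0.95 (limma adjusted p = 0.00049), and Cox4i2 was lower, at -0.40 (limma adjusted p = 0.016), while Vtn and Myl9 were higher by 0.35 and 0.45 (adjusted p = 0.0072 and 0.0070). Ndufa4l2, named outside the rule, differed by -0.27 (adjusted p = 0.038). Vegfb, Epas1 and Pfkfb3 were higher by 0.52, 0.28 and 0.70 (limma adjusted p = 0.0025, 0.011 and 0.0025), and Wnt7b was lower, at -0.28 (adjusted p = 0.022). Adgrl4, Slc38a5 and Ndufa4l2 lost their calls with 9 of the 12 arrays left out in turn, and Tfrc and Wnt7b with 5. The call of Ramp2 was lost without ERalphaKO female 3 (adjusted p = 0.052), and that of Igfbp7 without ERalphaKO female 1, ERalphaKO male 2 or ERbetaKO male 2 (adjusted p = 0.051 to 0.059). With the Actb covariate the calls of Kdr, Robo4, Adgrl4, Igfbp7, Slc38a5, Tfrc, Cox4i2 and Wnt7b were lost. The arrays with Pcp2 of 500 or more lost those of Ramp2, Igfbp7, Slc7a5, Slc38a5, Vtn, Ndufa4l2, Cox4i2 and Wnt7b. A common median scaling removed those of Adgrl4, Slc38a5, Tfrc, Ndufa4l2 and Wnt7b. The mean of probe sets removed those of Igfbp7, Adgrl4, Tfrc, Epas1 and Wnt7b, the last at 0.0039 (limma adjusted p = 0.99).

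Marker lists of other cells were counted in the same fit. Over all genes tested, 6.70% passed in the first line and 7.50% in the second. An unadjusted p under 0.05 in limma was found for 23.3% and 25.4% of all genes. The 12 fibroblast and meningeal genes, which would come with adhering meninges, had 0 calls in either line (1 and 3 at an unadjusted p under 0.05 in limma), and their summed signal ran from 4920 to 8759 in wild type, from 6030 to 9710 in the ERalphaKO line and from 4007 to 11104 in the ERbetaKO line. Among 14 astrocyte genes 1 fell in the first line and 2 in the second (5 and 10 at an unadjusted p under 0.05 in limma), and the summed signal was 62345 to 70172 in wild type, 51279 to 61696 in the first line and 49822 to 69699 in the second. Among 10 microglial genes 2 and 1 fell, with sums of 10930 to 17431, 10691 to 13272 and 10521 to 14023. The 11 cerebellar genes had 0 calls, and 0 at an unadjusted p under 0.05 in limma, and list medians of 0.09 and -0.94, with sums of 10587 to 83797, 9968 to 54518 and 8612 to 75521. Of 18 immediate early genes, the fast transcriptional response of cells to stimulation, 15 rose in the first line and 14 in the second. That list holds Klf2 and Klf4, transcription factors that endothelial cells raise under flow, chosen after their values were seen, which rose by 0.61 and 0.60 in ERalphaKO-labelled brains (limma adjusted p = 0.0016 and 0.0051) and differed by 0.22 and 0.05 in ERbetaKO-labelled brains (adjusted p = 0.13 and 0.80). With a cerebellar score as a covariate the Cldn5 differences were -0.40 in both lines. Of 12 neuronal genes 1 fell in the first line and 0 in the second (7 and 1 at an unadjusted p under 0.05 in limma). Their summed signal was 85173 to 109807 in wild type, 69624 to 88195 in the first line and 81030 to 101180 in the second. Of 11 oligodendrocyte genes and of 6 pituitary genes 1 each fell in the second line. The 9 choroid plexus genes and 2 blood cell genes had no call. At an unadjusted p under 0.05 in limma they had 0 and 1, the 1 in the second line. The part of the other cell types in the results was not tested.

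Within groups, the 10 genes did not vary as 1 block. After the group means were subtracted, 45 pairs of genes were correlated over the 18 arrays, which share their RNA and scaling across genes. The median Pearson r was 0.05, with 25 pairs positive and 20 negative. A single pair passed adjustment over the 45, Tek and Pdgfrb, with Pearson r = 0.82 (permutation p within groups adjusted to 0.049) and Spearman rho = 0.80 (adjusted permutation p = 0.090). Without the 2 arrays farthest from the median of Tek r was 0.76, and over the 11 arrays of high Pcp2 it was 0.50. With 1 array left out r stayed between 0.78 and 0.89. The call was lost with 14 of the 18 arrays left out in turn, at adjusted permutation p up to 0.20. Cldn5 and Itm2a, whose leading probe sets were both lower in the 2 lines, had r = 0.49 (adjusted permutation p = 0.66) and rho = 0.45 (adjusted p = 0.57). On the strong-Pcp2 arrays their r was -0.22. The genes were mostly steady: the within-group SD on the log2 scale was 0.12 for Cldn5 and Itm2a, 0.10 for Rgs5 and 0.09 for Pecam1, against a median of 0.18 over all genes, and Slc2a1, Flt1 and Pdgfrb stood above it at 0.21, 0.20 and 0.19.

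The genes most like Cldn5 in how they varied within groups over the 18 arrays were Il24, Tlr13, Zfp608, Mcm3 and Mro, at Pearson r of 0.86, 0.85, 0.85, 0.84 and 0.82. For Rgs5 they were Cblb, Zfp653, Oxnad1, Mapk7 and Mphosph9, at 0.82, 0.82, 0.81, 0.80 and 0.79. They were the highest among all genes tested, and are given as a description with no test.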

How the data were processed

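Whole-brain RNA was labelled and hybridised to 18 Affymetrix Mouse 430 2.0 arrays. The deposited intensity values are MAS5 signals, per the submitters' processing notes, and every deposited column had a 2% trimmed mean of 500. That scaling removes any shift common to all genes, so every difference is relative to the array. The genome build the authors used was not given in the sources used here, and the number of arrays limits precision. Of 45101 probe sets, 64 were controls, 34945 had 1 gene symbol in the platform annotation, 932 had several and 9160 had none. Signals plus 63.6, their 25th percentile, were taken to log2, with 1 probe set per gene and a filter at the 40th percentile (log2 7.58). Group means of the 6 groups were fitted with limma 3.58.1 in R 4.3.3 (12 residual degrees of freedom), with an intensity trend and Benjamini-Hochberg adjustment over 13072 genes. The leading probe sets and all others were also tested by exact permutation of 6 against 6 arrays. Within-group correlations used 100000 permutations. In data simulated on the comparison of ERalphaKO with wild type over 13072 genes with 200 changed, limma recovered 35.3% at 1.3-fold, 80.6% at 1.5-fold and 96.7% at 2-fold, and 4.76% of calls were false. The simulated noise was independent between genes, so variation that genes share on an array was absent. These rates need not hold for the calls above. The members and gene lists were chosen with earlier results of these data known. Genes of the related lists were named if they passed the threshold, up to 4 for each list and comparison by adjusted p.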

Additional observations from a re-analysis of the deposited data

Results flagged for a closer look

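Among the 10 genes in 3 genotypes of 6 arrays each, 1 of 30 sets held an array far from the others. Pecam1 gave 209.8 on ERalphaKO male replicate 3, the lowest of its 6 arrays, where the gap to the next was 0.630 of the whole range, just past the 95% limit for 6 values. Chance gives about 1 such array in 20 sets.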

How the results depend on the processing

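The Cldn5, Itm2a and Rgs5 differences kept their direction under every alternative run. Cldn5 kept both calls except on the strong-Pcp2 arrays and, in the ERbetaKO line, with the Actb covariate. The Itm2a call in the ERalphaKO line was lost (limma adjusted p 0.051 to 0.098) with quantile normalization, a common median, no filter, no intensity trend, only the groups compared, the replicate block, the Actb covariate or strong Pcp2. In the ERbetaKO line it was lost (0.052 to 0.49) with quantile normalization, the mean of probe sets, no intensity trend, the block, the Actb covariate or strong Pcp2. The Rgs5 call there was lost (0.055 to 0.45) with a common median, no intensity trend, only the groups compared, the Actb covariate or strong Pcp2. Calls lost with 1 array left out are given with each gene. The count of the 10 genes past the threshold in ERalphaKO-labelled brains, 2, was 1 with quantile normalization, a common median scaling, no filter, no intensity trend, only the groups compared or the Actb ratio as a covariate, 0 on the 11 arrays of high Pcp2, and 1 to 3 with 1 array left out. In ERbetaKO-labelled brains, 3 became 1 with no intensity trend, 0 with the Actb covariate, 0 on the strong-Pcp2 arrays and 1 to 2 with 1 array left out. Between the lines, 0 became 2 with a common median scaling, 1 with array weights, 1 with only the groups compared and 0 to 1 with 1 array left out. For all genes, 876 in the first line became 461 (common median), 2450 (all probe sets), 1559 (array weights), 1477 (cerebellar covariate), 423 (Actb covariate) and 75 (strong Pcp2), and 396 to 777 with 1 array left out. In the second line, 980 became 1873, 2113 and 1547 under the first 3 of these, 122 with the Actb covariate and 235 on the strong-Pcp2 arrays, and 500 to 1002 with 1 array left out. Between the lines, 2010 became 4173 (all probe sets), 3827 (weights) and 756 (Actb covariate), and 1183 to 2248 with 1 array left out. The strong-Pcp2 alternative has fewer arrays and also selects them by a Purkinje cell signal, and the all-probe-set one has more features. The cause of these moves and of the others was not tested. The correlation count of 1 became 0 on the strong-Pcp2 arrays and 0 to 1 with 1 array left out. Signs turned only for values near 0 that had no call, and for Wnt7b between the lines, which became 0.0039 with the mean of its probe sets. Abcb1a in ERalphaKO-labelled brains became 0.016 (mean of probe sets), 0.070 (strong Pcp2) and -0.090 to 0.024 with 1 array left out. In ERbetaKO-labelled brains Slco1c1 became 0.034 (strong Pcp2; -0.12 to 0.052 with 1 array left out), Tek ran from -0.071 to 0.012, and Slc2a1 became -0.093 (common median), -0.041 (mean of probe sets), -0.10 (Actb covariate) and -0.070 to 0.10. By the exact test there, the second Itm2a probe set became -0.13 (common median; -0.026 to 0.029), the leading Slc2a1 probe set -0.093 (common median; -0.037 to 0.10) and the second one 0.020 (quantile; -0.060 to 0.039). Replicate numbers were not treated as pairing the samples. Deviations of same-numbered arrays correlated at -0.40 to 0.43. Differently numbered arrays were not compared, so a pairing was not tested. With the replicate number as a block, 1, 2 and 0 of the 10 genes passed in the 3 genotype comparisons, beside 790, 786 and 1877 of all genes, and 1 and 3 of the other endothelial genes passed against wild type in place of 2 and 5.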
